A study of Mus musculus with 28 samples.

Results

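Transcripts of the unfolded protein response and the integrated stress response were followed in mouse liver through 10 genes: Atf4, Ddit3, Atf3, Trib3, Chac1, Asns, Sesn2, Fgf21, Hspa5 and Xbp1. They were taken by gene symbol from the deposited count tables, where they are 10 of 32544 genes, and all 10 passed the filter on low counts in both tables. Whole livers of 28 C57BL/6 mice were sequenced, 1 library for each animal, with 4 males or 3 females in each of 8 groups. Control mice (CT) carried floxed alleles and knockout mice (EC-Myc KO, written KO below) lost c-Myc, a transcription factor of growth genes, from endothelial cells. Tamoxifen, which switches on the Cre recombinase that makes the deletion, was given to animals at 5 weeks of age. A further 2 weeks later the diets began, either a control diet low in fat (CTD) or one rich in fat and cholesterol (HFC), and lasted 5 weeks. The labels give an age of 13 weeks, while these steps add to 12 weeks. The promoter driving Cre is not given in the sources used here. Animals on CTD carry numbers from 298 to 320 and animals on HFC carry numbers from 412 to 543, so a difference between cohorts and the diet cannot be told apart.

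Cells answer misfolded protein in the endoplasmic reticulum (ER), amino acid shortage, haem shortage or viral RNA with kinases that phosphorylate the initiation factor eIF2. General protein synthesis then slows while the transcription factor ATF4 is translated more, and ATF4 with its partners drives genes for amino acid supply, glutathione breakdown and cell death. This branch is the integrated stress response. The ER has further sensors of its own: IRE1 splices Xbp1 mRNA into the form that encodes an active factor, and ATF6 is cut free from its membrane, and together these raise chaperones such as BiP, the product of Hspa5. In liver both branches are known from fatty liver disease, and hepatocytes release the hormone FGF21 when the ATF4 or the PPAR alpha pathway is active. ATF4 and XBP1 activity are set mainly by translation and splicing, which read counts per gene do not show.

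The members lie on 8 chromosomes of GRCm38, by the GENCODE annotation. Chac1 (chromosome 2, 119351229 to 119354381), Trib3 (chromosome 2, 152337422 to 152344032) and Hspa5 (chromosome 2, 34771970 to 34777547) share a chromosome. Fgf21 is on chromosome 7 (45613886 to 45615490), Asns on chromosome 6 (7675169 to 7693254), Sesn2 on chromosome 4 (132492032 to 132510501) and Atf3 on chromosome 1 (191170296 to 191218039). Atf4 is on chromosome 15 (80255184 to 80257541), Ddit3 on chromosome 10 (127290774 to 127296288) and Xbp1 on chromosome 11 (5520659 to 5525893).

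The promoters of the genes were searched for the DNA elements that these factors are known to bind, because a shared element is the textbook link among the members. The sequences are RefSeq promoters on GRCm38.p6, from 250 bases before to 50 after the gene start, and all 10 genes were matched by symbol. The core of the C/EBP-ATF response element, spelled TGATGNAA and searched on both strands, was in 5 of the 10, namely Atf3, Trib3, Chac1, Asns and Fgf21, and in 3.97% of 32851 promoters of the same length. The ER stress response element, spelled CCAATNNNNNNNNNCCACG and searched on both strands, was in Hspa5 alone among the 10 and in 0.119% of promoters. Its opening letters are also the CCAAT box, which was in 6 of the 10 and in 37.4% of promoters. The cAMP response element TGACGTCA (1.79% of promoters) and the XBP1 and ATF6 element TGACGTGG (0.676%) were in none of the 10 windows. Shown are the genes on which the diet and genotype results below turn, Chac1 (chr2:119350992-119351291, plus strand) and Fgf21 (chr7:45615441-45615740, minus strand), with Asns (chr6:7693160-7693459, minus strand), the amino acid supply gene of the set, and the ER chaperone gene Hspa5 (chr2:34771840-34772139, plus strand) as the contrast. Capitals mark the C/EBP-ATF core in the first 3, at -193 to -186 in Chac1, -139 to -132 in Fgf21 and -23 to -16 in Asns from the gene start, and in Hspa5 the CCAAT and CCACG ends of the ER stress response element at -65 to -47.
Chac1: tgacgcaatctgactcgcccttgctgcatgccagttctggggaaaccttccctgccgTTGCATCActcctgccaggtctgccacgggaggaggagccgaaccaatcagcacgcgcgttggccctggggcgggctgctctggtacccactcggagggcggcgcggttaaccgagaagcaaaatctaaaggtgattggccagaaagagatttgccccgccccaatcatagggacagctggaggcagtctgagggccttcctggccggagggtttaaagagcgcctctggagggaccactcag
Fgf21: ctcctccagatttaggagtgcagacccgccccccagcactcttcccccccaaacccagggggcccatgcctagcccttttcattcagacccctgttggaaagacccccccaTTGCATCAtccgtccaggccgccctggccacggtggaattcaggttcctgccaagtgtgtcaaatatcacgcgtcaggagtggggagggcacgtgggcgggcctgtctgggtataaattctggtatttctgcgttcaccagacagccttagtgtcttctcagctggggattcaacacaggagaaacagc
Asns: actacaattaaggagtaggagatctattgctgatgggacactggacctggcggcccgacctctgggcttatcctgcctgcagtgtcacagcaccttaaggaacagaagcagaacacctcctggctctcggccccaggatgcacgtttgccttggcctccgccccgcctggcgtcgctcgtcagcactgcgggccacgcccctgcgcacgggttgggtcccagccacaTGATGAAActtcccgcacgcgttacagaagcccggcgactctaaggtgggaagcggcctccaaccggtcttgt
Hspa5: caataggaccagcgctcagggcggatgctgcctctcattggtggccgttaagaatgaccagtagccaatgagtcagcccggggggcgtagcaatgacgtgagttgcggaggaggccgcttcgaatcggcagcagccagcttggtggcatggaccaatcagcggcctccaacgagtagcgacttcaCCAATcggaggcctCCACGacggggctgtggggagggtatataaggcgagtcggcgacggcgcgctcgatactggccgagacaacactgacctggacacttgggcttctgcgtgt
A match of letters is a description of these windows and no measure of binding in these livers.

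Library totals were 22154774 to 22652285 counts in males and 18741939 to 19195502 in females. Levels are given as CPM, the usual count scaled to a fixed library size, here with TMM factors computed from the deposited counts. Scaling by plain library totals shifts the median log2 diet difference of the tested genes upward, to 0.22 in CT males (-0.01 with TMM), 0.26 in KO males (-0.02), 0.30 in CT females (0.00) and 0.32 in KO females (0.02). Every change given here is relative to TMM scaling unless library totals are named. Myc ranged from 3.58 to 12.4 CPM over the 8 male CT livers and from 3.09 to 20.1 over the 8 male KO livers, and from 4.37 to 12 and 4.64 to 20.5 CPM over the 6 female CT and 6 female KO livers. The genotypes overlap in both sexes. Of the 8 marker lists read, hepatocyte genes were the most abundant in every group, as the tissue label says, with 8 markers summing to 82700 to 126000 CPM in males and 109000 to 186000 CPM in females. Each sex was deposited as its own table and fitted alone, so levels are not compared between the sexes.

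The members spanned a wide range of abundance. Per kilobase of exon, the ER chaperone gene Hspa5 was highest, with a median of 89.8 CPM per kb over the 16 male livers (72.5 to 125) and 65.7 over the 12 female livers (56.2 to 87). Xbp1 followed with medians of 65.9 and 58.9 CPM per kb and Atf4 with 21.1 and 31.4. In both sexes the ranges over livers of Hspa5 and Xbp1 overlapped, and both lay above the range of Atf4. Trib3, Chac1, Sesn2, Ddit3 and Fgf21 had medians of 2.65 to 4.65 CPM per kb in males and 2.56 to 4.05 in females, and their ranges overlapped one another. Atf3 had medians of 0.782 in males and 2.02 in females. Asns, which makes asparagine, was the lowest at 0.315 and 0.231 CPM per kb, with 6 to 53 reads in a male library and 7 to 42 in a female one, so its values carry a large counting error.

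**Figure D1:**
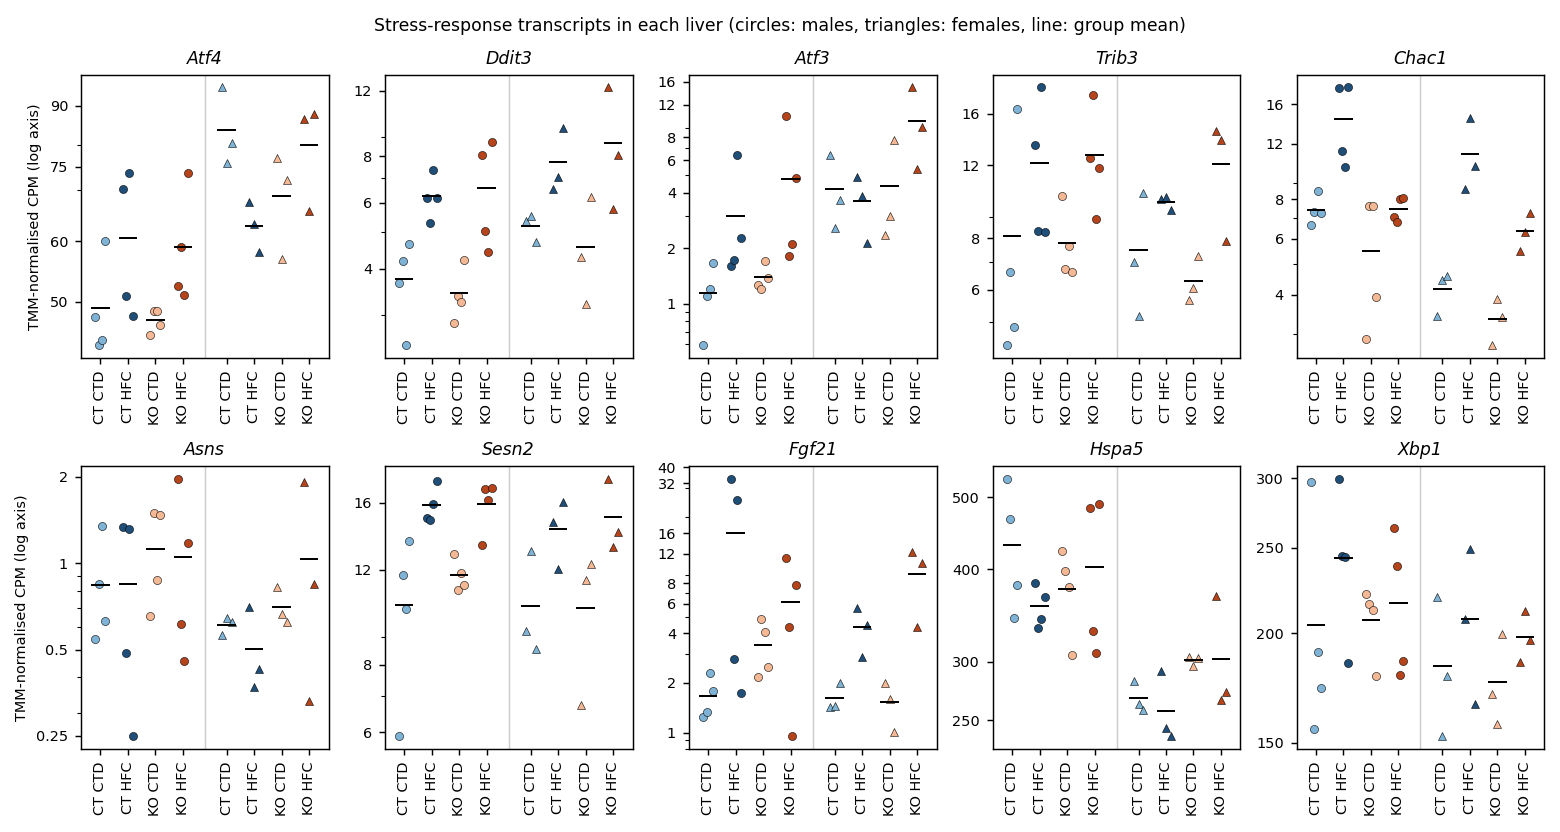
TMM-normalised CPM of each gene (vertical, log axis) in each liver by genotype and diet (horizontal), males as circles and females as triangles, with a line at the group mean. Fgf21 splits the 4 male CT livers on HFC into values of 34.1 and 25.5 and values of 2.78 and 1.74, and Chac1 is lower in every KO liver than in every CT liver on HFC in both sexes.

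The first question was how these transcripts differed between livers on HFC and on CTD. Since diet and cohort cannot be told apart, a rise or fall below means higher or lower on HFC than on CTD. In control males 4 members rose, the stress effectors Ddit3, Chac1, Sesn2 and Fgf21, and none fell. In KO males Ddit3 and Atf3 rose, in control females Chac1 alone rose, and in KO females Fgf21, Chac1 and Trib3 rose. No member rose in all 4 comparisons, and Atf4, Asns, Xbp1 and the ER chaperone gene Hspa5 passed the test in none of them. The tests were edgeR's quasi-likelihood F test with Benjamini-Hochberg adjustment over all tested genes, with a call at an adjusted p under 0.05. Among all tested genes 10.6% were called higher and 9.40% lower on HFC in CT males, and 15.5% and 13.6% in KO males. In CT females 0.936% were called higher and 1.26% lower, and in KO females 3.94% and 4.65%. Against these shares stand 4, 2, 1 and 3 of 10 members called higher, in the same order, and 0 called lower in each. With 1 library left out the counts called were 1 to 4, 1 to 2, 1 and 1 to 3, the lowest without HFC liver 543 in CT males and without CTD liver 307 in KO females, and in KO males without any of the 6 livers named with Atf3 below. The median log2 difference over the 10 was 0.60, 0.44, 0.28 and 0.74, beside medians of -0.01, -0.02, 0.00 and 0.02 over all tested genes. In whole liver, fewer cells of a type and less RNA in each cell cannot be told apart. Markers of other cells separated the diets in males. The 8 macrophage markers summed to 251 to 456 CPM on CTD and 590 to 966 CPM on HFC, and 7 of them rose in CT males and 8 in KO males. The 7 T and NK cell markers summed to 3.31 to 5.52 and 7.2 to 12 CPM (4 and 6 rose), and the 6 neutrophil markers to 5.49 to 13.3 and 16.3 to 27.4 CPM (3 and 4 rose). In KO males the stellate and fibroblast sum was 218 to 247 CPM on CTD and 261 to 552 on HFC, and the cholangiocyte sum 40.6 to 72.6 and 74.8 to 236. Hepatocyte markers went the other way in KO males, with sums of 106000 to 126000 CPM on CTD and 86600 to 98000 on HFC (3 fell). In CT males the hepatocyte sums overlapped, at 86700 to 118000 and 82700 to 103000 CPM (2 fell). In females the macrophage sum was 244 to 675 CPM on CTD and 417 to 1250 on HFC with no marker called, the endothelial sum was 144 to 217 and 254 to 267 in CT, and hepatocyte markers summed to 163000 to 186000 on CTD and 109000 to 156000 CPM on HFC. The B and plasma cell sum in KO females was 229 to 345 CPM on CTD and 128 to 210 on HFC. No marker was at 0 throughout a group except Ly6g in CT females on CTD and the B and plasma cell gene Tnfrsf17 in KO females on HFC. The part of these cell types in the results was not tested. Where livers on HFC and CTD do not overlap for a member, this is pointed out below. The share of all tested genes without overlap between diets was not counted, so such remarks only describe the values.

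Atf4, which encodes the central activator of the integrated stress response, passed the test in no diet comparison. In control males its level was 47.8, 43.9, 44.6 and 59.9 CPM on CTD and 70.1, 50.9, 73.5 and 47.9 (animals 416, 417, 418 and 543). Livers 416 and 418 thus stood above every CTD liver while the other two lay among them, and the log2 difference was 0.30 (SE 0.145, adjusted p = 0.152 by edgeR). The KO males held 45.3 to 48.6 CPM on CTD and 51, 52.5, 59 and 73.7 on HFC, which do not overlap, for a log2 difference of 0.32 (SE 0.145, adjusted p = 0.111). Control females held 95.2, 75.8 and 80.5 CPM on CTD and lower values of 67.4, 63.1 and 58 on HFC. Those groups do not overlap either, but the log2 difference of -0.42 (SE 0.152) missed the threshold with an adjusted p of 0.155. In KO females the difference was 0.22 (SE 0.152, adjusted p = 0.387) and the groups overlapped. With library totals the values in both male genotypes and in KO females passed the test, at log2 0.53 (adjusted p = 0.0252), 0.60 (0.0102) and 0.53 (0.029), and with only the KO males in the fit Atf4 passed there too (0.34, adjusted p = 0.0379).

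Ddit3 encodes CHOP, a transcription factor downstream of ATF4 that is linked to cell death. In control males it was 3.66, 4.18, 2.5 and 4.67 CPM on CTD and 6.2, 5.3, 7.34 and 6.18 on HFC. Every HFC liver exceeded every CTD liver, and Ddit3 rose by log2 0.73 (SE 0.222, adjusted p = 0.0275). The KO males rose as well, from 2.86, 3.39, 3.27 and 4.22 CPM to 8.07, 5.04, 4.42 and 8.72, by log2 0.94 (SE 0.223, adjusted p = 0.0045), again with no overlap. In control females the values of 5.37, 5.55 and 4.71 on CTD and 6.55, 7.04 and 9.55 CPM on HFC did not overlap, and the difference of 0.56 (SE 0.284, adjusted p = 0.284) did not pass. KO females held 4.31, 3.22 and 6.22 CPM on CTD and 12.2, 5.78 and 8.05 on HFC, where liver 413 lay below CTD liver 317, for a log2 difference of 0.92 (SE 0.285, adjusted p = 0.0627). The call in CT males was lost without CTD liver 301 or 313 or HFC liver 418 or 543, at adjusted p = 0.0628, 0.0869, 0.0901 and 0.0513, while KO females passed without liver 317 or 413, at 0.0451 and 0.0114, and with library totals (0.0115) or DESeq2 (0.0268). Ddit3 exons in the GENCODE annotation of GRCm38 share 105 bases with a second record of the same name on the same strand, and 68 with Mars and 13 with the transcript Gm4189 on the opposite strand. Whether counting used strand is not given, so some of its reads may be lost or belong to those records.

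Atf3 encodes a stress-induced repressor and activator of the same family, and its livers on HFC were scattered in males. Control males held 0.594, 1.1, 1.2 and 1.66 CPM on CTD and 1.59, 1.72, 6.42 and 2.28 on HFC, with liver 418 far above the other three, and the log2 difference of 1.40 (SE 0.597, adjusted p = 0.116) did not pass. DESeq2 called it, with an adjusted p of 0.0365. KO males went from 1.27, 1.2, 1.71 and 1.37 CPM to 10.4, 1.8, 2.11 and 4.81 with no overlap, and Atf3 rose there by log2 1.79 (SE 0.575, adjusted p = 0.0303). That call was lost without CTD liver 298, 303, 304 or 311 or HFC liver 414 or 540, at adjusted p = 0.0698, 0.0765, 0.0514, 0.0659, 0.143 and 0.053, and without the filter on low counts (0.0629). Without liver 414 the log2 difference was 1.07. In females neither genotype passed, at -0.21 (SE 0.535, adjusted p = 0.866) in CT, where the sign turned to 0.11 with library totals, and 1.17 (SE 0.518, adjusted p = 0.186) in KO.

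Trib3 encodes a pseudokinase that ATF4 induces and that in turn holds ATF4 and Akt back. KO females held 5.66, 6.05 and 7.24 CPM on CTD and 14.6, 13.8 and 7.86 on HFC, and Trib3 rose by log2 0.94 (SE 0.256, adjusted p = 0.0398) with all HFC livers above the CTD livers. The call was lost without CTD liver 307, 309 or 317 or HFC liver 412 or 413, at adjusted p = 0.136, 0.118, 0.0714, 0.138 and 0.0558, and with only those 2 groups in the fit (0.0898). Control males on CTD held 4.41, 6.62, 4.89 and, in liver 320, 16.5 CPM, while the HFC livers held 13.5, 8.34, 18.5 and 8.3. The single high CTD liver lay above all HFC livers but 418, and the log2 difference was 0.58 (SE 0.396, adjusted p = 0.333) with it and 1.20 (adjusted p = 0.0135) without it. KO males gave 0.71 (SE 0.397, adjusted p = 0.203), and passed with only their 2 groups in the fit (0.74, adjusted p = 0.0282). Control females gave 0.38 (SE 0.255, adjusted p = 0.425).

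Chac1, which breaks down glutathione and is a strongly ATF4-dependent gene in cultured cells, rose in 3 of the 4 comparisons. Control females held 3.44, 4.44 and 4.59 CPM on CTD and 8.62, 14.5 and 10.2 on HFC, a rise of log2 1.41 (SE 0.22, adjusted p = 0.00533) with no overlap. It was the one member called there, and it stayed called without any single library (adjusted p 0.00998 to 0.04). Control males held 6.63, 7.32, 8.53 and 7.23 CPM on CTD and 17.9, 11.3, 10.1 and 18.1 on HFC, a rise of log2 0.95 (SE 0.256, adjusted p = 0.0167), again with no overlap. Without CTD liver 301 or HFC liver 543 the adjusted p was 0.0507 and 0.0522. KO females rose from 2.77, 3.88 and 3.39 CPM to 5.48, 6.3 and 7.25, by log2 0.92 (SE 0.224, adjusted p = 0.0237). That call was lost without CTD liver 307 or 317 or HFC liver 419, at adjusted p = 0.1, 0.071 and 0.0819, and with only those 2 groups in the fit (0.0623). In KO males the CTD livers held 2.91, 7.62, 7.6 and 3.93 CPM and the HFC livers 7.03, 6.76, 8.02 and 8.07. A pair of CTD livers lay within the HFC range and a pair below it, and the difference of 0.44 (SE 0.266, adjusted p = 0.237) did not pass, although it did with library totals (0.72, adjusted p = 0.0337).

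Asns, the amino acid supply gene of the set, showed no diet difference that passed. The log2 differences were 0.02 (SE 0.529), -0.08 (SE 0.504), -0.28 (SE 0.557) and 0.55 (SE 0.51) in CT males, KO males, CT females and KO females, with adjusted p from 0.53 to 0.982. Both negative values changed sign with library totals, to 0.23 and 0.01. Male CT livers on HFC held 1.34, 0.486, 1.32 and 0.249 CPM, so that livers 416 and 418 again stood apart, and on CTD they held 0.545 to 1.35.

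Sesn2 encodes a sestrin, a leucine sensor that restrains mTORC1. It was 5.89, 11.7, 10.1 and 13.6 CPM in CT males on CTD and 15, 14.9, 15.9 and 17.6 on HFC, with no overlap and a rise of log2 0.61 (SE 0.17, adjusted p = 0.018). HFC liver 543 decided the call, since without it the adjusted p was 0.0509, and with only those 2 groups in the fit it was 0.0718. The other comparisons gave 0.43 (SE 0.168, adjusted p = 0.0631) in KO males, 0.47 (SE 0.227, adjusted p = 0.266) in CT females and 0.56 (SE 0.227, adjusted p = 0.141) in KO females. Thus all 4 estimates were positive and of similar size, and 1 of them passed. Sesn2 passed in KO males with library totals, with DESeq2 and with only their 2 groups in the fit (adjusted p = 0.00698, 0.0412 and 0.006), and in KO females with library totals (0.0226).

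Fgf21, the hormone of the set, had the largest diet differences of the 10 in CT males and KO females. KO females rose from 2.01, 1.61 and 1.02 CPM on CTD to 12.3, 4.36 and 10.6 on HFC, by log2 2.56 (SE 0.395, adjusted p = 0.00232). The groups did not overlap, and the call held without any single library (adjusted p 0.000154 to 0.017). Control females held 1.44, 1.46 and 1.98 CPM on CTD and 5.7, 2.87 and 4.48 on HFC, also without overlap. That difference of 1.41 (SE 0.396) had an adjusted p of 0.0812 and passed with library totals, DESeq2 or only those 2 groups in the fit (0.0228, 0.0175 and 0.028). Control males held 1.24, 1.34, 2.29 and 1.8 CPM on CTD and 34.1, 2.78, 25.5 and 1.74 on HFC. Livers 416 and 418 were far above every CTD liver, liver 417 was just above them and liver 543 lay among them, so the rise of log2 3.27 (SE 0.952, adjusted p = 0.0298) rests on 2 of 4 animals. It was lost without CTD liver 301, 305, 313 or 320 or HFC liver 416 or 418, at adjusted p = 0.0788, 0.0789, 0.0614, 0.0524, 0.077 and 0.0791, and with only those 2 groups in the fit (0.0968). KO males held 2.16, 4.88, 4.05 and 2.5 CPM on CTD and 11.4, 4.35, 0.951 and 7.82 on HFC, a range that enclosed the CTD livers, and the difference of 0.86 (SE 0.888, adjusted p = 0.514) did not pass.

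**Figure D2:**
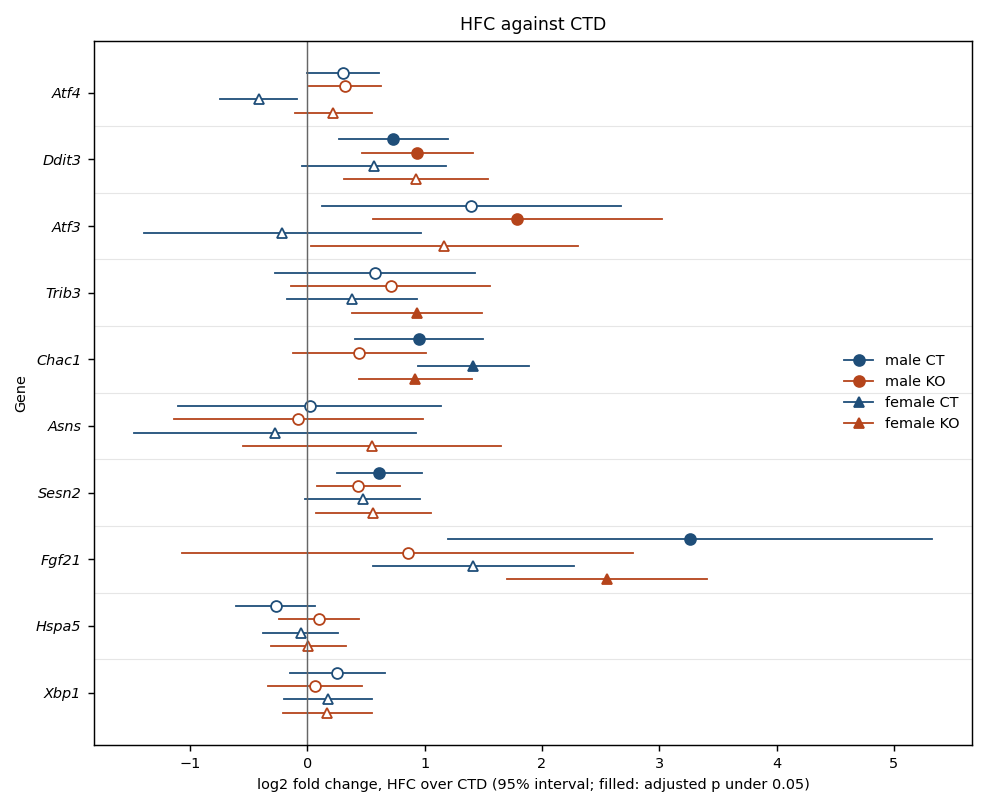
Log2 fold change of HFC over CTD (horizontal, with 95% intervals) for each gene (vertical) in 4 comparisons, blue for CT and orange for KO, circles for males and triangles for females. Filled symbols had an adjusted p under 0.05. Atf4, Asns, Hspa5 and Xbp1 have no filled symbol, with estimates from -0.27 to 0.10 for Hspa5 and from 0.06 to 0.25 for Xbp1.

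The ER genes Hspa5 and Xbp1, like Atf4 and Asns, were called in no diet comparison. Hspa5 encodes BiP, the chaperone that holds the ER sensors inactive. It was 530, 468, 344 and 381 CPM in CT males on CTD and 384, 333, 343 and 367 on HFC, which overlap, at a log2 difference of -0.27 (SE 0.16, adjusted p = 0.249). The other values were 0.10 (SE 0.16), -0.06 (SE 0.148) and 0.00 (SE 0.148) in KO males, CT females and KO females, with adjusted p from 0.69 to 0.99. The 95% intervals ran from -0.611 to 0.0658 in CT males and from -0.315 to 0.325 in KO females. For Xbp1 the differences were 0.25 (SE 0.19), 0.06 (SE 0.19), 0.18 (SE 0.175) and 0.17 (SE 0.175), with adjusted p from 0.375 to 0.837. Without CTD liver 301, which at 297 CPM was well above the 156, 190 and 173 of the other male CT livers on CTD, Xbp1 passed in CT males (0.49, adjusted p = 0.0445).

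Other genes of the same pathways were read from 12 lists. Their counts are to be read beside the shares of all tested genes called higher and lower. These were 10.6% and 9.40% in CT males and 15.5% and 13.6% in KO males. In CT females they were 0.936% and 1.26%, and in KO females 3.94% and 4.65%. Of 20 ER chaperone genes, 7 fell in control males and none rose, among them Ppib (-0.45, adjusted p = 0.00134), a proline isomerase, the HSP90 paralogue Hsp90b1 (-0.64, 0.00806), the disulfide isomerase Pdia6 (-0.53, 0.00876) and the BiP cochaperone Dnajb11 (-0.40, 0.0224). The list median was -0.235 (log2), beside -0.01 over all genes. Between 3 and 8 genes fell with 1 library left out, 3 without CTD liver 305 or HFC liver 418, and with library totals 1 of the 7 still fell and all 7 kept a negative sign. In KO males Dnajc10 rose (0.34, adjusted p = 0.0209) and Ppib fell (-0.26, 0.0236, with the sign turning to 0.02 on library totals), and in both female genotypes no gene of this list passed. The median of the list was 0.06 in CT females and 0.12 in KO females. ER-associated degradation had no call in CT males or in females, and the falls in KO males included Edem3 (-0.24) and Sel1l (-0.23), neither of which passed with library totals, where both had the opposite sign.

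Genes of ER translocation and export gave 1 fall of 20 in CT males (the cargo receptor Lman1, -0.48, adjusted p = 0.00139), 2 rises and 1 fall in KO males (Spcs2 0.36, Spcs1 0.17, and Lman1 -0.35, which had an adjusted p of 0.481 with library totals), none in CT females and 2 rises of 21 in KO females (Spcs2 0.53, Ssr3 0.42). With 1 library left out the translocation and export list had 0 to 4 rises and 1 to 2 falls in KO males. Its calls there were fewest without CTD liver 298, 303 or 311 or HFC liver 540. In KO females it had 0 to 4 rises and 0 to 1 falls, with the most calls without HFC liver 413. The fewest came without CTD liver 307, 309 or 317 or HFC liver 412 or 419. Of the 9 ER sensors and proteases none passed in CT males or CT females. Creb3l3, a liver factor released from the ER membrane, fell in KO males (-0.38, adjusted p = 0.000926, and 0.244 with library totals) and Traf2, which couples IRE1 to kinase signalling, rose in KO females (0.74, adjusted p = 0.0067). Among 14 eIF2 kinases, exchange factor subunits and phosphatase adaptors, the haem-regulated kinase gene Eif2ak1 fell in CT males (-0.20, adjusted p = 0.0352) and KO males (-0.22, 0.0156), but its sign was positive with library totals (0.03 and 0.05). The phosphatase adaptor Ppp1r15b fell in KO males (-0.44, adjusted p = 0.00024, and 0.0831 with library totals). No gene of that list passed in females.

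The ATF4 side gave a mixed picture. Of the 14 ATF4 partners and feedback genes, the stress hormone gene Gdf15 (2.37, adjusted p = 0.00964) and the stress-induced chromatin factor Nupr1 (1.40, 0.049) rose in CT males, while Gdf15 gave 0.77, -0.54 and -0.18 with no call in KO males, CT females and KO females. Nupr1 also rose in KO males (1.40, adjusted p = 0.0362) and KO females (1.89, 0.0204), joined in KO males by Batf2 (2.01) and Stc2 (1.01). With 1 library left out this list had 1 to 3 rises in CT males, 1 to 2 in KO males and 0 to 2 in KO females, with the fewest calls without HFC liver 414 in KO males and without CTD liver 307, 309 or 317 or HFC liver 412 in KO females. The C/EBP factor gene Cebpb fell by 0.73 in KO males (adjusted p = 0.0184) and KO females (adjusted p = 0.0341), and by library totals neither fall passed (0.0799 in each). In the 12 aminoacyl-tRNA synthetases every call was a rise: Cars (0.74), Sars (0.37) and Mars (0.26) in CT males, Wars (0.39) in KO males, Cars (0.59) in CT females and Cars (0.71) and Sars (0.60) in KO females. The 1 rise of 12 in KO males stands beside 15.5% of all tested genes called higher there. Leaving out 1 library gave 1 to 5 rises in CT males (1 without HFC liver 418) and 0 to 2 in CT females, where the Cars call was lost without liver 306, 308, 420 or 510.

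**Figure D3:**
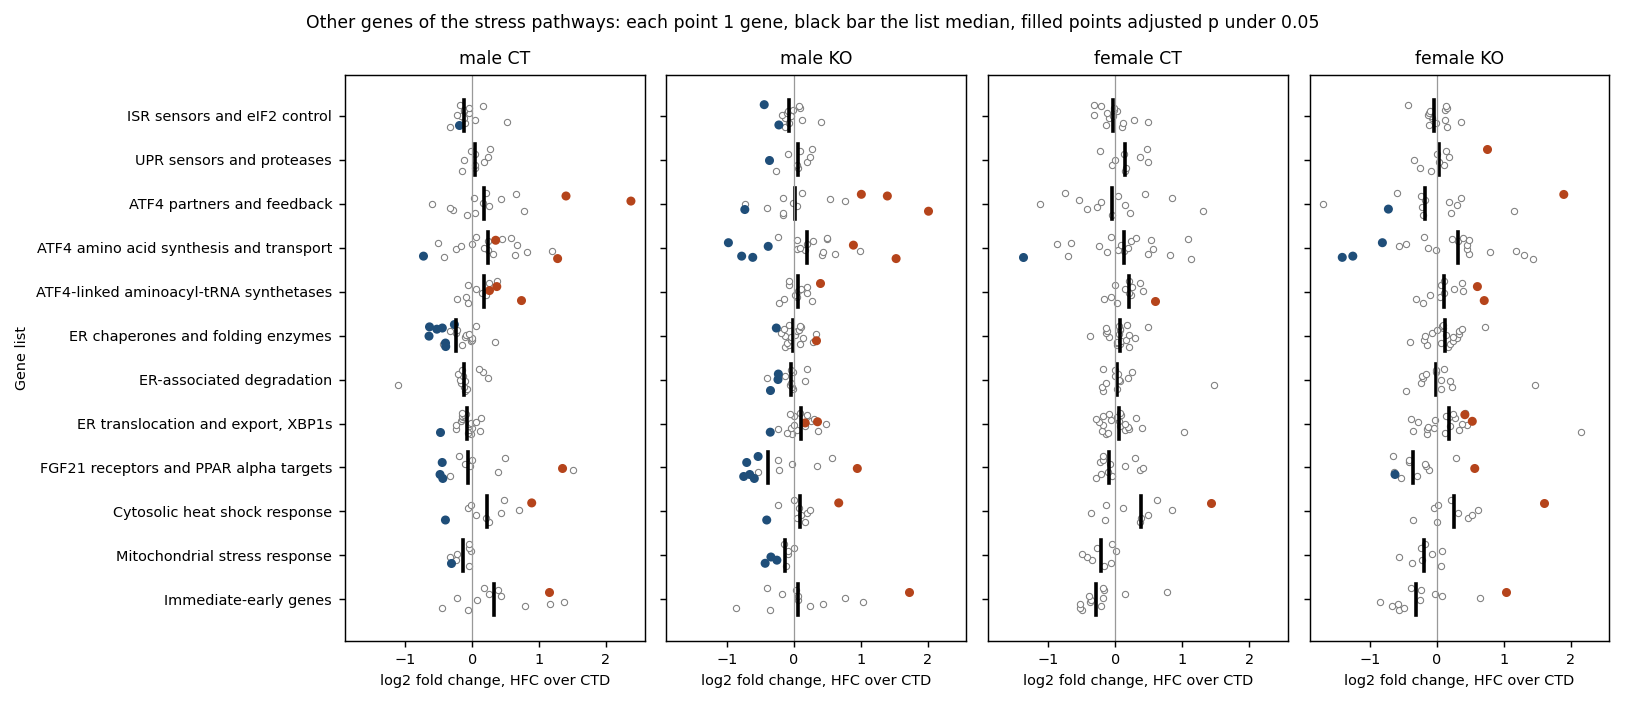
Log2 fold change of HFC over CTD (horizontal) for each gene of 12 pathway lists (vertical), in 4 panels for CT males, KO males, CT females and KO females. Filled points had an adjusted p under 0.05, orange above 0 and blue below, and black bars are list medians, such as -0.235 for ER chaperones in CT males.

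The 19 genes of amino acid synthesis and transport split in direction. Aldh18a1, which starts proline synthesis, rose in CT males (1.28, adjusted p = 0.00465) and KO males (1.53, 0.000595), and the glycine transporter gene Slc6a9 rose in CT males (0.35) and Slc1a4 in KO males (0.89). Gpt2, an alanine aminotransferase, fell in CT males (-0.73, adjusted p = 0.00192), KO males (-0.78, 0.000584) and KO females (-1.26, 0.00178). Cth, which makes cysteine from cystathionine, fell in KO males (-0.61), CT females (-1.38, adjusted p = 0.00318) and KO females (-1.42, 0.00134). The glutamine transporter gene Slc38a2 fell in KO males (-0.98) and KO females (-0.82), and Shmt2 fell in KO males (-0.38). Of these, Cth and Shmt2 in KO males did not pass with library totals (adjusted p = 0.126 and 0.204).

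The receptors of FGF21 and the targets of PPAR alpha, the fasting factor that also drives Fgf21, gave calls in both directions. Klb, the FGF21 coreceptor, passed nowhere (-0.01, -0.23, -0.19 and -0.41 in CT males, KO males, CT females and KO females). The peroxisomal enzyme gene Ehhadh rose in CT males (1.35), KO males (0.95) and KO females (0.56). Cpt1a, which admits fatty acids to mitochondria for oxidation, fell in CT males (-0.48) and KO males (-0.66, adjusted p = 3.99e-05), and the falls in KO males also included Angptl4 (-0.75) and Ppara (-0.53). Cpt1a fell in KO females too (-0.63, adjusted p = 0.037). With library totals every one of these falls stayed negative, but Ppara in KO males and Cpt1a in KO females no longer passed. In KO females this list had 0 to 5 falls with 1 library left out, and the amino acid list 0 to 4 rises and 3 to 4 falls, each with the most calls without HFC liver 413.

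Lists for other stress programmes served as comparison. In the cytosolic heat shock list of 10 the small heat shock gene Hspb1 rose in all 4 comparisons (0.89, 0.67, 1.43 and 1.60 in CT males, KO males, CT females and KO females), and Dnaja1 fell in both male genotypes (-0.40 in each), though not with library totals (adjusted p = 0.289 and 0.374). Of the mitochondrial stress genes, Dnaja3 fell in CT males (-0.31) and Dnaja3 (-0.43), Hspd1 (-0.34) and Hspa9 (-0.25) in KO males, none of which passed with library totals, and Hspa9 turned to 0.02 there. Of 12 immediate-early genes, which respond to tissue handling among other signals, Klf6 rose in CT males (1.15), KO males (1.72) and KO females (1.03), and gave 0.77 in CT females (adjusted p = 0.0817). None of the other 11 passed in any diet comparison, and the list median was 0.32, 0.06, -0.285 and -0.32 in the same order.

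The study also asked what loss of endothelial c-Myc does. No member passed the test between KO and CT on either diet in either sex, and 0% of all tested genes were called in each of the 4 comparisons. At an unadjusted p under 0.05, edgeR gave 949 genes on CTD and 653 on HFC in males and 446 and 311 in females, and DESeq2 called 11, 3, 1 and 0 genes after adjustment. Of the members, none was under an unadjusted p of 0.05 on CTD in either sex, 1 was on HFC in males (Chac1) and 4 were on HFC in females (Chac1, Atf3, Fgf21 and Atf4). Over the 10 the log2 differences ran from -0.43 (Chac1) to 1.02 (Fgf21) in males on CTD, from -1.38 (Fgf21) to 0.67 (Atf3) in males on HFC, from -0.31 (Chac1) to 0.20 (Asns) in females on CTD and from -0.81 (Chac1) to 1.43 (Atf3) in females on HFC. The lists named above also held no call between genotypes.

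Chac1 was the member with the most separated genotypes on HFC. Male CT livers held 17.9, 11.3, 10.1 and 18.1 CPM and male KO livers 7.03, 6.76, 8.02 and 8.07, a mean of 14.4 ± 4.22 against 7.47 ± 0.67 (SD, n = 4). Female CT livers held 8.62, 14.5 and 10.2 CPM and female KO livers 5.48, 6.3 and 7.25, a mean of 11.1 ± 3.04 against 6.34 ± 0.888 (SD, n = 3). Every KO liver lay below every CT liver in both sexes. The log2 difference was -0.94 in males (SE 0.254, 95% interval -1.48 to -0.404) and -0.81 in females (SE 0.212, -1.26 to -0.349). Neither passed over all genes, with edgeR adjusted p = 0.958 and 1 (unadjusted 0.00199 and 0.00214), and Chac1 ranked 14 of 14078 genes by p in males and 5 of 13999 in females. DESeq2 gave adjusted p = 0.263 and 0.896. Groups did not overlap in either direction for 2.17% of genes in males and 5.46% in females on HFC. Of 13738 genes tested in both sexes, 15 (0.109%) were lower in KO than in CT on HFC without overlap in both, and Chac1 was singled out among the members after its values were seen.

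On HFC the number series differ between genotypes, since the 3 female KO livers are numbered 412, 413 and 419 while CT livers include 510 and 512. Among animals numbered 412 to 420, female CT liver 420 held 8.62 CPM of Chac1, above the 3 KO livers, and the male CT livers 416, 417 and 418 held 10.1 to 17.9 CPM against 7.03 and 6.76 in KO livers 414 and 415. Among those numbered 510 to 543, male CT liver 543 held 18.1 CPM against 8.02 and 8.07 in KO livers 539 and 540. A term for the latter animals moved the male log2 difference from -0.94 to -1.02. No female KO liver on HFC carries a number from 510 to 543, and of the female CT livers on HFC only 420 lies in the KO series. In females number series and genotype can therefore hardly be told apart. Beyond the term fitted in males, the part of the number series in the Chac1 difference was not tested. On CTD, Chac1 overlapped between genotypes in both sexes, beside 3.99% of genes without overlap in males and 9.18% in females. The interaction of genotype and diet for Chac1 did not pass, at -0.51 in males (SE 0.369, adjusted p = 0.929) and -0.50 in females (SE 0.312, adjusted p = 0.991).

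Genotype differences of the other members ran in both directions. In females on HFC, Atf3 was 4.85, 3.84 and 2.13 CPM in CT and 14.9, 5.4 and 9.04 in KO, without overlap, at a log2 difference of 1.43 (SE 0.521, unadjusted p = 0.0188, edgeR adjusted p = 1). Fgf21 was higher by 1.06 (SE 0.359, unadjusted p = 0.0111, edgeR adjusted p = 1) and Atf4 by 0.35 (SE 0.152, unadjusted p = 0.0393, edgeR adjusted p = 1), both with overlapping livers. In males on HFC the corresponding values were 0.67 for Atf3, -1.38 for Fgf21 and -0.04 for Atf4, none under an unadjusted p of 0.05. Whether the genotype difference itself differs between the sexes was not tested.

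**Figure D4:**
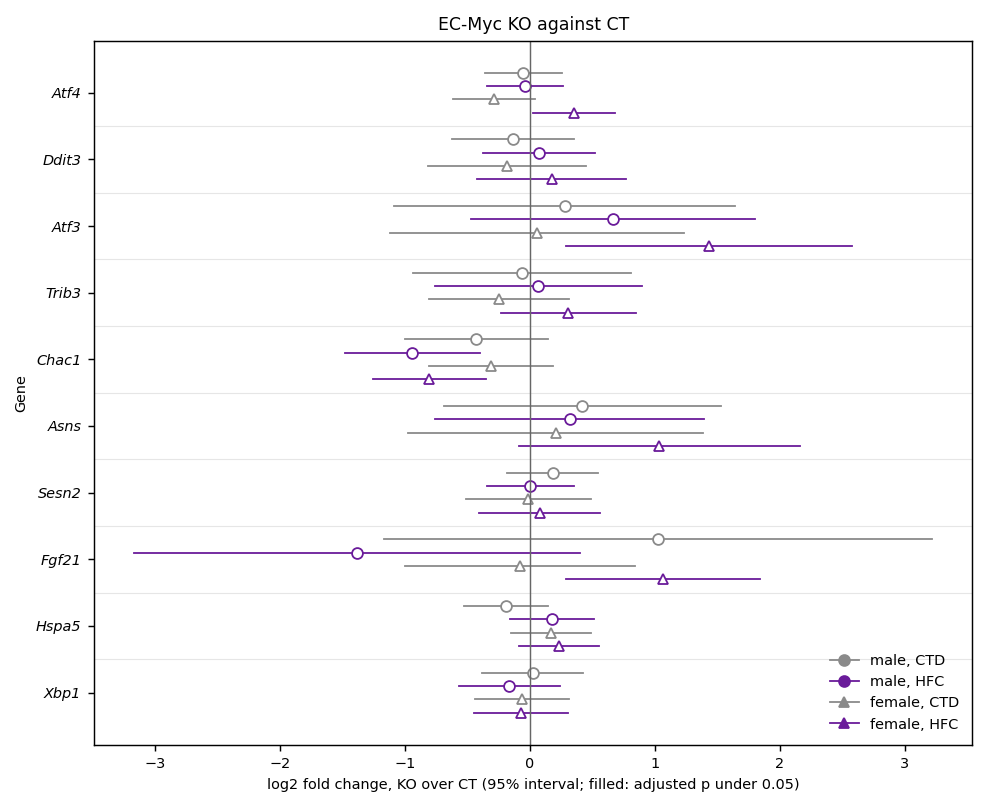
Log2 fold change of KO over CT (horizontal, with 95% intervals) for each gene (vertical), grey on CTD and purple on HFC, circles for males and triangles for females. No symbol is filled, as none had an adjusted p under 0.05, and the HFC intervals of Chac1 lie below 0 in both sexes, from -1.48 to -0.404 in males and from -1.26 to -0.349 in females.

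The interaction of genotype and diet asks whether the diet response differs between KO and CT. No member and 0% of all genes were called in either sex, with 852 genes in males and 546 in females at an unadjusted p under 0.05 by edgeR and 5 and 0 called by DESeq2. Estimates for the members ran from -2.41 (Fgf21) to 0.39 (Atf3) in males and from -0.50 (Chac1) to 1.38 (Atf3) in females. Atf4 in females was the one member under an unadjusted p of 0.05, with -0.42 in CT and 0.22 in KO and an interaction of 0.64 (SE 0.215, unadjusted p = 0.011, edgeR adjusted p = 0.991). The calls listed for one genotype and not the other are therefore not shown to differ between genotypes.

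Some livers were the highest or the lowest of their group for many members at once. Such ranks were not counted over all tested genes, so they only describe the members. On HFC, female KO liver 412 was the highest of its group for 7 of 10 members and liver 413 the lowest for 7. Liver 412 was the lowest for Chac1 and Xbp1, and liver 413 the highest for Xbp1. Male KO liver 539 was the lowest of its group for 7. Male CT liver 543 was lowest for 5 members, Atf4, Trib3, Asns, Fgf21 and Xbp1, and highest for Chac1 and Sesn2. To measure this, group means were subtracted from log2 CPM (prior count 0.5) and all 45 pairs of members were correlated in each sex, with a permutation test that shuffled livers within groups.

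No pair passed Benjamini-Hochberg adjustment in either sex. The closest was Asns with Fgf21, at Pearson r = 0.872 and Spearman rho = 0.879 over 16 male livers (permutation p = 0.0014 and 0.00125, adjusted 0.063 and 0.0562) and r = 0.84 and rho = 0.895 over 12 female livers (permutation p = 0.00537 and 0.00384, adjusted 0.242 and 0.173). Without the 2 livers farthest from the median of Asns, r was 0.817 in males and 0.763 in females. The widest deviations were in HFC livers: male Fgf21 ran from -2.198 to 2.075 on HFC and from -0.5707 to 0.5993 on CTD. In females it ran from -0.9235 to 0.5647 and from -0.536 to 0.4248. Asns and Fgf21 deviated in opposite directions in male CTD livers 305, 320, 304 and 311, female CTD livers 308 and 309 and female HFC liver 512. The diets were not correlated apart. Median r over the 45 pairs was 0.17 in males (-0.761 to 0.872, 32 positive) and 0.223 in females (-0.61 to 0.84, 28 positive). The lowest male pair was Sesn2 with Xbp1 (r = -0.761, rho = -0.624, permutation p = 0.0136 and 0.0246, adjusted 0.306 and 0.439, and r = -0.631 without the 2 farthest livers). The low counts of Asns limit the precision of every pair that holds it.

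**Figure D5:**
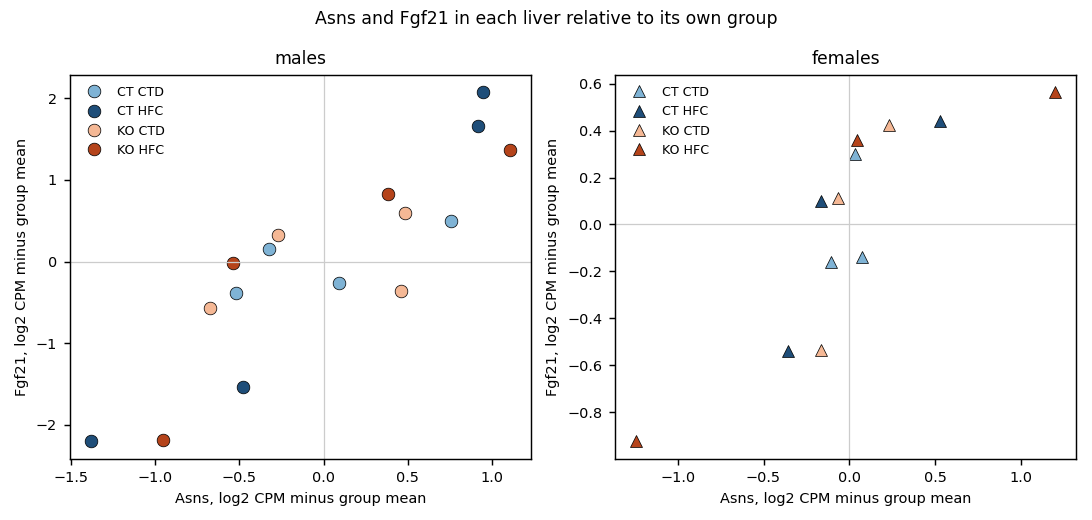
Fgf21 (vertical) against Asns (horizontal) in each liver, both as log2 CPM minus the mean of the liver's own group, with males at left and females at right and colours for the 4 groups. Livers rich in Asns for their group were mostly rich in Fgf21, with r = 0.872 over 16 males and 0.84 over 12 females. The pair did not pass adjustment in either sex, and the widest deviations were in HFC livers.

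The genes whose within-group pattern was most like the mean of the 7 integrated stress response targets (Atf3, Ddit3, Chac1, Trib3, Asns, Sesn2 and Fgf21) were Kif20b (Pearson r = 0.954), Mki67 (0.912), Melk (0.89), Uhrf1 (0.872) and Stx4a (0.872) over 16 male livers. In 12 female livers they were Rhoc (0.979), Dmpk (0.976), Lgals3 (0.965), Tmem106a (0.962) and Hn1 (0.961). Spearman rho ran from 0.821 (Stx4a) to 0.95 (Kif20b) in males and from 0.692 (Hn1) to 0.979 (Dmpk) in females. Without the 2 livers farthest from the median of the target mean, r was 0.788 to 0.948 in males and 0.878 to 0.923 in females. Melk and Uhrf1 were low in males, with mean log2 CPM of -1.83 and -0.229. The male and female lists have no gene in common. These are the 5 highest of all tested genes in each sex, so their r is a description of the ranking and not a test.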

How the data were processed

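Total RNA from 28 livers was sequenced on DNBSEQ, per the labels' protocols. The authors deposited whole-number read counts per gene in a table for each sex, and all 28 columns were used, with no paired animals. Deposited CPM tables were not used here. The submitters' processing notes name FastQC, edgeR and GRCm38 (mm10). The aligner, the counter, its annotation and the strand setting appear in none of the sources used here, so reads of overlapping or near-identical genes may be split or lost.

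Each table was filtered with filterByExpr (14078 of 32544 genes kept in males, 13999 in females), TMM-scaled and fitted with 1 mean per group in edgeR 4.0.16 (R 4.3.3), and contrasts were tested with the robust quasi-likelihood F test and Benjamini-Hochberg adjustment over all tested genes (call: adjusted p under 0.05). The 4 groups of a table share 1 estimate of spread. SE is the size of the log2 fold change over the square root of F, an approximation that may be too small for low genes. Alternatives were DESeq2 1.42.0, its size factors in edgeR, library totals, no filter, only the 2 groups compared, a term for animals numbered 510 to 543 (males) and each library left out. Correlations used 100000 permutations within groups. Of these steps only the edgeR fit was checked on simulated counts.

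The members, the 12 pathway lists (164 of 165 entries are in the tables, 163 tested) and the 8 marker lists were chosen with earlier results of these data known. All members are named, and from each list up to 4 called genes by adjusted p per comparison, or, with no call, up to 2 by lowest p. A few genes of the lists are not reported here. Lists with no call are mostly given without single values. Where more than 4 genes of a list were called, the further ones were named after their values were seen, as were the values without a call of Gdf15, Klf6 and Klb. Promoter sequences are from RefSeq (GRCm38.p6). Library totals were 22154774 to 22652285 counts in males and 18741939 to 19195502 in females. No molecular identifiers are mentioned. The p-values of the main edgeR fit weigh a difference against the spread between animals within groups, estimated over all 4 groups of a table.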

Additional observations from a re-analysis of the deposited data

Results flagged for a closer look

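Atf3 in male CT liver 418 on HFC, at 6.42 CPM, lay far above the nearest of the other 3 livers of its group, at 2.28 CPM. The gap is 0.857 of the whole range of the group. The same liver was also the highest of its group for Atf4, Ddit3 and Trib3 and the lowest for Chac1. Of 40 sets of 4 male livers examined, 10 genes in 4 groups, this was the 1 with such a gap, and chance gives about 1 in 20. Groups of 3 female livers were not examined in this way.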

How the results depend on the processing

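No paired analysis was possible because the animal numbers are not shared between groups. For single members and for calls over all genes, the fits with only the 2 groups compared and the term for animals numbered 510 to 543 were chosen after seeing the data, as were the repeats of the pathway lists and of the correlations. Members called between diets numbered 4 in CT males (2 with only the 2 groups compared), 2 in KO males (5 with library totals, 1 without the filter, 5 with only 2 groups), 1 in CT females (2 each with library totals, DESeq2 or only 2 groups) and 3 in KO females (6 with library totals, 1 with only 2 groups). Leaving out 1 library gave 1 to 4, 1 to 2, 1 to 1 and 1 to 3. Calls over all genes were 2820 in CT males (4535 with library totals, 4125 higher and 410 lower), 4102 in KO males (6092, 5581 higher and 511 lower), 307 in CT females (1827, 1682 higher and 145 lower, 919 with DESeq2, 804 with only 2 groups) and 1202 in KO females (3737, 3357 higher and 380 lower, 1884 with DESeq2, 435 with only 2 groups). With 1 library left out they were 1753 (without HFC liver 418) to 3374, 3064 to 4089, 72 (without HFC liver 420 or 510, and 85 and 118 without CTD livers 306 and 308) to 417 and 566 (without CTD liver 307) to 2671 (without HFC liver 413, every other omission giving 765 or fewer). Genotype and interaction counts of 0 became 11 (males on CTD), 3 (males on HFC), 5 (male interaction) and 1 (females on CTD) with DESeq2. With 1 library left out edgeR gave 0 to 9 between genotypes in females on HFC and 0 to 1 for the female interaction, the highest without KO liver 413. No member was called between genotypes or for the interaction in any of these fits. The log2 diet difference turned sign for Asns in KO males (0.23 with library totals, 0.42 with the animal number term), for Atf3, Asns and Hspa5 in CT females with library totals (0.11, 0.0125 and 0.24) and for Hspa5 in KO females, which is close to 0 (-0.000134 with DESeq2 size factors, -0.000106 with DESeq2, -0.00217 without the filter). With 1 library left out it ran from -0.28 to 0.34 for Asns in CT males, from -0.58 to 0.17 for Asns, -0.042 to 0.15 for Xbp1 and -0.0097 to 0.21 for Hspa5 in KO males, from -0.48 to 0.22 for Atf3 in CT females, and from -0.25 to 0.97 for Asns and -0.16 to 0.088 for Hspa5 in KO females. Chac1 between genotypes on HFC stayed negative in each such fit, from -1.08 to -0.81 in males and -0.96 to -0.57 in females. Correlated pairs were 0 in both sexes, and 1 in females with library totals. The cause of these changes was not tested. Counts limit Asns (6 to 53 reads per male library) most.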
